A study of Mus musculus with 26 samples.

Results

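Of the 45318 genes in the RNA-seq count files, 8 were followed library by library: the 4 genes of the Fos family (Fos, Fosb, Fosl1 and Fosl2), the 3 genes of the Jun family (Jun, Junb and Jund), and Egr1. They were chosen by name, without a threshold on any measured value, but with earlier results of these data known. All 8 passed the filter on low counts that left 15023 genes for testing. Polyadenylated RNA was sequenced from 4T1, a cell line from a mammary tumor of BALB/c mice, which was grown in DMEM with fetal bovine serum and antibiotics in every group. The control cells were wild type at MaTAR25, a nuclear long non-coding RNA gene (1200007C13Rik), and the study used a guide RNA against Renilla luciferase as its negative control. In the MaTAR25-/- groups, KO1 and KO2, a pair of guide RNAs and Cas9 had removed a stretch over the transcription start site of MaTAR25, and each group is 1 clone grown from a sorted cell. There were 2 control, 3 KO1 and 4 KO2 libraries, and no treatment was given in the labels.

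Fos and Jun proteins are basic leucine zipper transcription factors that bind DNA as dimers, called AP-1, at the site TGAGTCA and its relatives. Jun proteins can pair with each other or with Fos proteins, whereas Fos proteins need a partner, so the mixture of members sets which dimers can form. Many of these genes, like Egr1, a zinc finger factor that binds GC-rich promoters, are immediate-early genes: serum, growth factors and stress induce them within minutes through the MAP kinases and the factors SRF, TCF and CREB, and their transcripts are short-lived. In mammary tumor cells AP-1 is known for its part in proliferation, invasion and the expression of matrix metalloproteinases.

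The libraries held 25367211 to 61110585 counts on genes, the fewest in KO2 replicate 2, whose file listed each gene 3 times with the same count, used once here. MaTAR25 itself was low everywhere, at 35 and 30 counts in the control libraries and 0 to 11 counts in the 7 KO libraries, or 0.768 and 0.915 against at most 0.307 CPM (counts scaled to a common library size, here with TMM factors). Of 8 epithelial markers, 7 were at or above 1 CPM on average in each group. Their summed level was 4372 to 4506 CPM in control, 3566 to 5148 in KO1 and 1898 to 3535 in KO2, so that KO2 lay below control. Of 7 immune markers 2 reached a mean of 1 CPM in each group, of 6 fibroblast markers 1 and of 4 endothelial markers none, with sums of at most 29.3, 46.9 and 1.68 CPM in any library. Krt5 of the epithelial markers, Dcn, Lum, Col3a1 and Thy1 of the fibroblast markers and Adgre1 of the immune markers had no count in any library. The part of these shifts in the results was not tested, and in bulk RNA fewer cells with a transcript and less transcript per cell cannot be told apart. The labels do not say that libraries of a group came from separate cultures, so p-values measure the spread between these libraries, which may be technical.

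The promoters of Fos, Fosb and Jun are shown because these 3 genes differed between the 2 clones and carry recognisable elements close to their starts. Each line gives the 120 bases before the RefSeq start on the strand of the gene, 5′ to 3′, in GRCm38.p6, and the capitals mark TGACG, the core of the cAMP response element (CRE), or the AP-1-like site TGACATCA of the Jun promoter. Fos lies on the plus strand at chr12:85473770-85473889, Fosb on the minus strand at chr7:19310046-19310165 and Jun on the minus strand at chr4:95052223-95052342.
Fos: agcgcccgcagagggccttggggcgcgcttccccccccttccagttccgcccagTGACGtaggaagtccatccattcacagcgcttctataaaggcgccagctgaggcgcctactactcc
Fosb: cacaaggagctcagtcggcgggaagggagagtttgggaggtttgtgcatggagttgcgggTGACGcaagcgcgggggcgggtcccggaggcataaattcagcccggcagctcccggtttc
Jun: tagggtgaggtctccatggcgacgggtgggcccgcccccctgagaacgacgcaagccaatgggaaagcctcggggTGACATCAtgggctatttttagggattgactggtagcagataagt

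Of the 8 genes, 6 had a promoter in the RefSeq table, all but Fosl1 and Egr1, and 250 bases before each RefSeq start were searched on both strands. TGACG was found in 3 of the 6: in Fos at 66 to 62 and at 129 to 125 bases before the start, in Fosb at 60 to 56 and in Junb at 106 to 102. It occurs in 19.8% of the 27025 genes with a promoter in the table. TGACATCA was found in Jun alone of the 6, at 45 to 38 bases before the start, and in 3.41% of all genes. The TATA box TATAAA was found in Fos (14.3% of all genes) and CCAAT in Jun and Junb (37.5%). The full CRE TGACGTCA (1.77%), the AP-1 site TGAGTCA (5.16%), the EGR site GCGTGGGCG (0.622%) and the CArG box bound by SRF (1.62%) were not found in these windows of the 6 genes, which says only that these letters are not there. For 2 genes the RefSeq start is not the gene start used below. The window of Jund ended at chr8:70697738, upstream of the gene start at 70698949. That of Fosl2 ended at chr5:32136471, inside the gene, which starts at 32135801. The bases just before these 2 gene starts were therefore not searched.

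Per kb of exon, Jund and Junb had the highest levels of the 8 genes in control cells, at 264 ± 40.4 and 254 ± 34.9 CPM per kb (SD, n = 2), and their libraries overlapped. Egr1 (119 ± 15.8) and Jun (111 ± 18.5) came next and overlapped with each other, followed by Fosl1 (47.1 ± 10.9), Fos (30.1 ± 0.200) and Fosl2 (24.2 ± 1.02), and Fosb was lowest at 4.27 ± 0.0127 CPM per kb. In KO1 (n = 3) Junb and Jund were again at the top at 139.8 ± 33.3 and 131 ± 34.9 CPM per kb, and Fos fell in the order to the place before Fosb, at 3.90 ± 0.596 against 2.30 ± 0.910 CPM per kb. In KO2 (n = 4) Jund was highest at 161 ± 52.6 and Fosl2 lowest at 19.0 ± 5.62 CPM per kb, and every gene overlapped with its neighbour in the order.

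The comparison of the 7 KO libraries with the 2 control libraries pools the MaTAR25-/- clones and asks whether their joint level differs from control. It treats the 7 libraries as replicates of the same group, so a call in it does not show that each clone differs from control. The comparisons of each clone with control, and of KO2 with KO1, ask whether the clones did the same. Against control, the 7 KO libraries had lower Egr1 and Jund, and none of the 8 genes passed the test as higher. KO1 had lower Fos, Jun, Jund and Egr1, whereas KO2 had higher Fosb and lower Egr1. Between the clones, Fos, Fosb, Fosl1 and Jun were higher in KO2 than in KO1, the largest difference being 17.1-fold for Fos.

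By edgeR's quasi-likelihood test with an adjusted p under 0.1, 2 of the 8 genes were called in KO against control, where 22.6% of all tested genes were called, and both were lower, as were 10.7% of all genes. In KO1 against control 4 of 8 were called, against 31.6% of all genes, and the 4 were lower, against 15.7%. In KO2 against control 2 of 8 were called, against 31.4%, 1 in each direction. In KO2 against KO1 4 of 8 were called, against 19.6%, and the 4 were higher in KO2, against 10.2%. The median log2 fold change of the 8 genes was -0.47 in KO, -0.95 in KO1 and -0.34 in KO2 against control, beside 0.055, 0.021 and 0.034 over all tested genes, and 0.74 in KO2 against KO1 beside 0.023.

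All comparisons with control share the same 2 control libraries. Leaving out either one left 1 control library, and of the calls against control only that of Jun in KO1 then stood. The share of all tested genes called in those fits was not counted, so whether the loss is particular to the 8 genes is not known. In KO2 against KO1 the same 4 genes were called in those fits. The number of the 8 genes whose groups did not overlap was 3 in KO against control (34.4% of all tested genes), 7 in KO1 against control (66.9%), 4 in KO2 against control (46.9%) and 3 in KO2 against KO1 (24.5%). With so few libraries an exact two-sided permutation test of mean log2(CPM + 1) could not pass 0.05 for a single clone against control, where its smallest possible p was 0.1 for KO1 and 0.0667 for KO2. In KO against control its lowest p among the 8 genes was 0.0556, for Jund and Egr1, and in KO2 against KO1 0.0571, for Fos, Fosb and Jun, with 0.0278 and 0.0286 the smallest values these designs allow.

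**Figure D1:**
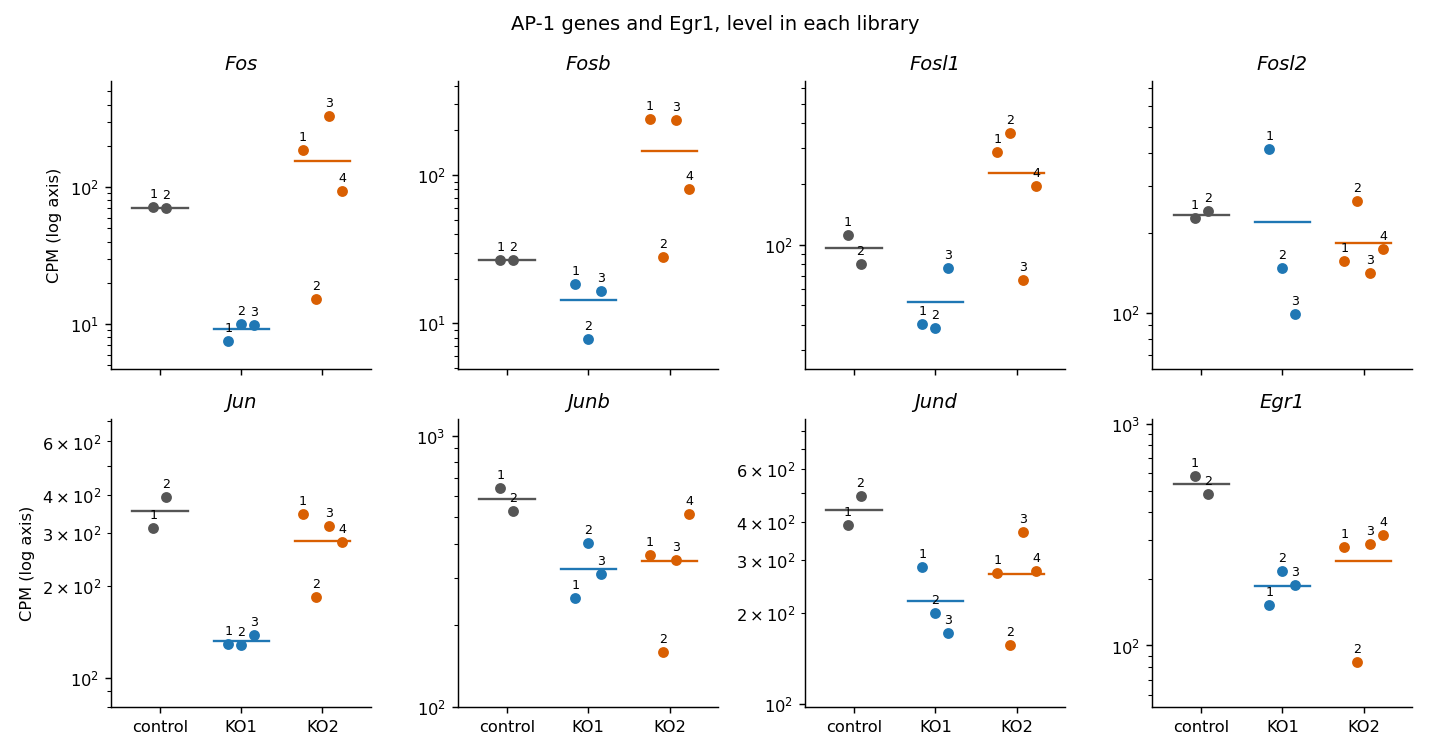
Each panel plots 1 gene, with the group on the x axis and the level in CPM on a log y axis, a point for each library with its replicate number, and a line at the group mean. Egr1 lay between 84.5 and 315 CPM in the 7 KO libraries and at 584 and 483 CPM in the control libraries, whereas Fos spread from 15.2 to 330.3 CPM within KO2.

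Fos (ENSMUSG00000021250, chr12:85473890-85477273, plus strand, in GRCm38 as are all positions of genes here) encodes the founding partner of Jun in AP-1. Its level was 71.1 and 70.4 CPM in control, 7.55, 10.1 and 9.90 CPM in KO1 replicates 1 to 3, and 186, 15.2, 330.3 and 93.0 CPM in KO2 replicates 1 to 4. Every KO1 library was below both control libraries, and 3 of the 4 KO2 libraries were above them, with KO2 replicate 2 near the KO1 level but above each KO1 library. Fos fell by 2.95 ± 0.86 (SE) on the log2 scale in KO1 against control, a level 7.73-fold lower (edgeR, adjusted p = 0.0354), and this call was lost without KO1 replicate 1 (adjusted p = 0.103) and without control replicate 1 or 2 (0.137 and 0.127). In KO2 against control the log2 fold change was 1.14 ± 0.84 (adjusted p = 0.352), and without KO2 replicate 2 it was 1.52 and called (adjusted p = 0.0351). Over the 7 KO libraries the log2 fold change was 0.40 ± 1.38 (adjusted p = 0.873).

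Fosb (ENSMUSG00000003545, chr7:19302696-19310051, minus strand) encodes a Fos protein, with a truncated splice form ΔFosB, that is induced with Fos but decays later. Its level was 26.6 and 26.7 CPM in control, 18.5, 7.89 and 16.6 CPM in KO1, and 239, 28.1, 235 and 80.4 CPM in KO2. The 3 groups did not overlap, with KO1 lowest and KO2 highest, although KO2 replicate 2 exceeded the control libraries by little. Fosb was 5.47-fold higher in KO2 than in control (log2 fold change 2.45 ± 0.79, edgeR, adjusted p = 0.0508), and this call was lost without control replicate 1 or 2 (adjusted p = 0.241 and 0.239). In KO1 the log2 fold change was -0.89 ± 0.73 (adjusted p = 0.408), and over the 7 KO libraries 1.75 ± 1.30 (adjusted p = 0.392). The counts do not separate the splice forms.

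Fosl1 (ENSMUSG00000024912, chr19:5447547-5455946, plus strand) encodes Fra-1, a Fos protein without a strong activation domain that is abundant in invasive mammary tumor cells. It was at 112 and 80.1 CPM in control, at 40.5, 38.8 and 76.7 CPM in KO1, and at 288, 359, 67.1 and 196 CPM in KO2. The KO1 libraries were below control, and 3 KO2 libraries were above it, but KO2 replicate 3, which had the highest Fos, had less Fosl1 than either control library. Neither clone passed the test against control, at a log2 fold change of -0.88 ± 0.56 in KO1 (edgeR, adjusted p = 0.284) and 1.25 ± 0.57 in KO2 (adjusted p = 0.144). Without KO2 replicate 3 both were called, at -0.89 (adjusted p = 0.0861) and 1.55 (adjusted p = 0.0164). Fosl1 overlaps Ccdc85b on the opposite strand, and the sources used here do not say whether the counting used strand, so its counts are uncertain to that extent.

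Fosl2 (ENSMUSG00000029135, chr5:32135801-32157842, plus strand) encodes Fra-2, a Fos protein that, like Fra-1, lacks a strong activation domain. Its level was 227 and 241 CPM in control, 413, 148 and 99.0 CPM in KO1, and 157, 263, 141 and 174 CPM in KO2. KO1 replicate 1 was the highest and KO1 replicate 3 the lowest of all 9 libraries, so KO1 alone spanned the other groups. The log2 fold change was -0.09 ± 0.51 in KO1 (edgeR, adjusted p = 0.912) and -0.35 ± 0.48 in KO2 (adjusted p = 0.622). Without KO1 replicate 1 the value in KO1 was -0.92 and called (adjusted p = 0.0793).

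Jun (ENSMUSG00000052684, chr4:95049034-95052222, minus strand) encodes c-Jun, a strong activator and the target of the kinase JNK. It was at 311 and 395 CPM in control, at 129, 128 and 138 CPM in KO1, and at 346, 184, 315 and 279.6 CPM in KO2. The KO1 libraries were close to each other and below every other library, and KO2 overlapped with control in replicates 1 and 3. In KO1 Jun was 2.68-fold lower than in control (log2 fold change -1.42 ± 0.24, edgeR, adjusted p = 0.00393), and this was the call against control that stood without either control library. In KO2 the log2 fold change was -0.33 ± 0.23 (adjusted p = 0.319), and over all KO libraries -0.70 ± 0.39 (adjusted p = 0.25). With KO1 and KO2 fitted as separate groups and averaged, the latter was -0.88 and called (adjusted p = 0.0129). The antisense gene Junos overlaps Jun, so reads of the pair may not have been told apart.

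Junb (ENSMUSG00000052837, chr8:84974484-84978718, minus strand) encodes a Jun protein that activates weakly and can restrain c-Jun. Its level was 641 and 528 CPM in control, 253, 404 and 308 CPM in KO1, and 363, 159.8, 348 and 515 CPM in KO2. All 7 KO libraries were below both control libraries, KO2 replicate 4 by little. The log2 fold change was -0.80 ± 0.32 over the 7 KO libraries (edgeR, adjusted p = 0.125), and the clones gave -0.86 ± 0.39 (KO1, adjusted p = 0.137) and -0.75 ± 0.36 (KO2, adjusted p = 0.162). Over the 7 KO libraries it was called without KO2 replicate 2 (-0.68, adjusted p = 0.0743) and without KO2 replicate 4 (-0.93, adjusted p = 0.0589). In KO1 it was called when the same KO2 libraries, which share the estimate of spread, were left out (adjusted p = 0.0258 and 0.0964). In KO2 it was called without KO2 replicate 4 (-1.01, adjusted p = 0.0642). With DESeq2, the tool of the study, Junb was called over the 7 KO libraries (adjusted p = 0.0993) and in KO1 (adjusted p = 0.0991). Junb overlaps Prdx2 on the opposite strand.

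Jund (ENSMUSG00000071076, chr8:70698949-70700616, plus strand) encodes the Jun protein that most cells make steadily, also at rest. It was at 392 and 487 CPM in control, at 284, 200.0 and 172 CPM in KO1, and at 271, 156, 370.5 and 275 CPM in KO2. All 7 KO libraries were again below both control libraries. Jund was 1.78-fold lower in KO than in control (log2 fold change -0.83 ± 0.28, edgeR, adjusted p = 0.0762) and 2.01-fold lower in KO1 (-1.01 ± 0.32, adjusted p = 0.0499). In KO2 the log2 fold change was -0.71 ± 0.30 (adjusted p = 0.119), and without KO2 replicate 3 it was -0.91 and called (adjusted p = 0.0456). The call in KO was lost without KO1 replicate 2 or replicate 3 (adjusted p = 0.111 in both), and so was that in KO1 (adjusted p = 0.133 and 0.146). Without control replicate 1 or 2 the adjusted p was 0.25 and 0.442 in KO and 0.143 and 0.265 in KO1. Jund overlaps the antisense gene Gm11175.

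Egr1 (ENSMUSG00000038418, on chromosome 18) encodes a factor of the same serum response that is not part of AP-1. It was at 584 and 483 CPM in control, at 153, 217 and 188 CPM in KO1, and at 278, 84.5, 287 and 315 CPM in KO2. All 7 KO libraries were below both control libraries, and KO2 replicate 2 was the lowest of all. Egr1 was 2.45-fold lower in KO than in control (log2 fold change -1.29 ± 0.37, edgeR, adjusted p = 0.0418), 2.87-fold lower in KO1 (-1.52 ± 0.43, adjusted p = 0.0331) and 2.21-fold lower in KO2 (-1.14 ± 0.40, adjusted p = 0.0698). It was the gene of the 8 called in all 3 comparisons with control. These 3 calls were lost without control replicate 1 (adjusted p = 0.309, 0.183 and 0.315) and without control replicate 2 (0.187, 0.113 and 0.199).

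**Figure D2:**
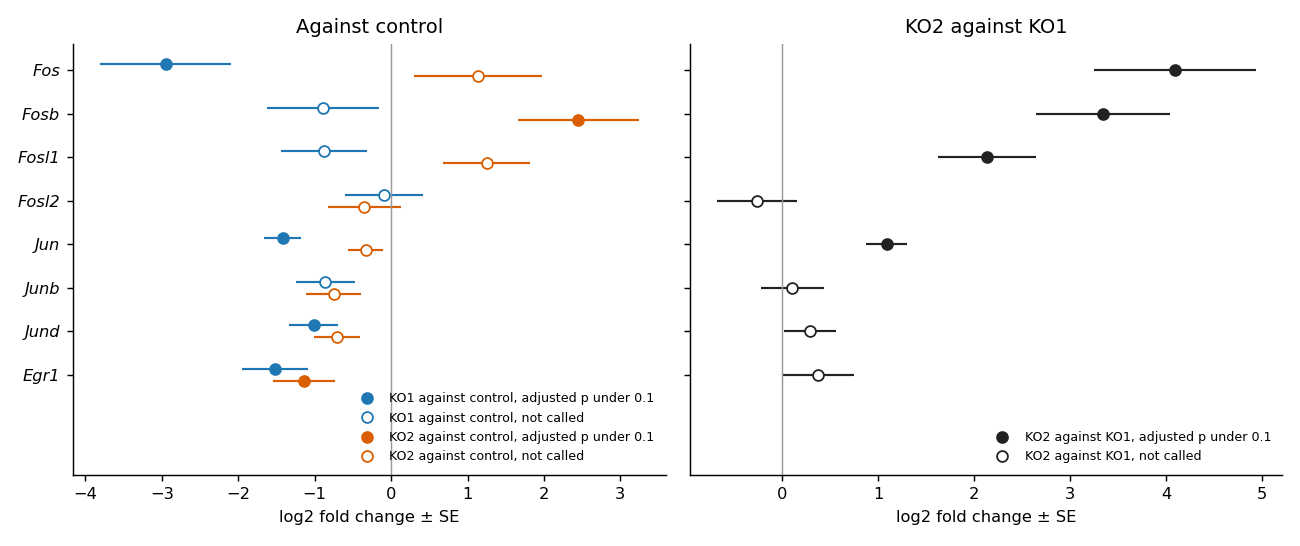
The left panel plots the log2 fold change of each gene in KO1 and KO2 against control and the right panel that of KO2 against KO1, with the standard error as the bar and a filled point where the adjusted p was under 0.1. Fos lay at -2.95 in KO1 and 1.14 in KO2, whereas Egr1 lay at -1.52 and -1.14.

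The clones were compared directly, since a call in one and not in the other does not show a difference. Fos was 17.1-fold higher in KO2 than in KO1 (log2 fold change 4.09 ± 0.84, edgeR, adjusted p = 0.0185) and Fosb 10.1-fold (3.34 ± 0.70, adjusted p = 0.0195), and in both genes the 4 KO2 libraries were above the 3 KO1 libraries. Jun was 2.13-fold higher, also without overlap (1.09 ± 0.21, adjusted p = 0.0143). Fosl1 was 4.38-fold higher (2.13 ± 0.51, adjusted p = 0.0296), with KO2 replicate 3 inside the KO1 range, and this call was lost without KO1 replicate 1 (adjusted p = 0.110) and without KO1 replicate 2 (adjusted p = 0.131). The calls of Fos, Fosb and Jun stood whichever single library was left out.

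The other 4 genes did not pass this test. Their log2 fold changes in KO2 against KO1 were -0.26 ± 0.42 for Fosl2, 0.11 ± 0.33 for Junb, 0.29 ± 0.27 for Jund and 0.38 ± 0.37 for Egr1. With an approximate 95% interval of 1.96 SE, the difference in Egr1 lay between -0.35 and 1.10 and that in Junb between -0.54 and 0.75. Without KO2 replicate 2, Egr1 was also called higher in KO2 than in KO1 (0.67, adjusted p = 0.0286).

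The sum of the 4 Fos family levels per kb of exon was 113 and 98.6 CPM per kb in control, 68.8, 39.9 and 54.9 in KO1, and 275, 215, 226 and 167 in KO2. The 3 groups did not overlap, with means of 106 ± 10.1, 54.5 ± 14.4 and 221 ± 44.6 CPM per kb (SD, n = 2, 3 and 4). The sum of the 3 Jun family levels was 612 and 645 CPM per kb in control, 321, 336 and 280.3 in KO1, and 428, 221, 472 and 477 in KO2. All 7 KO libraries were below control, and KO1 and KO2 overlapped through KO2 replicate 2. The sums were not tested, and beside them stand the shares of all tested genes without overlap with control, 66.9% in KO1 and 46.9% in KO2.

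**Figure D3:**
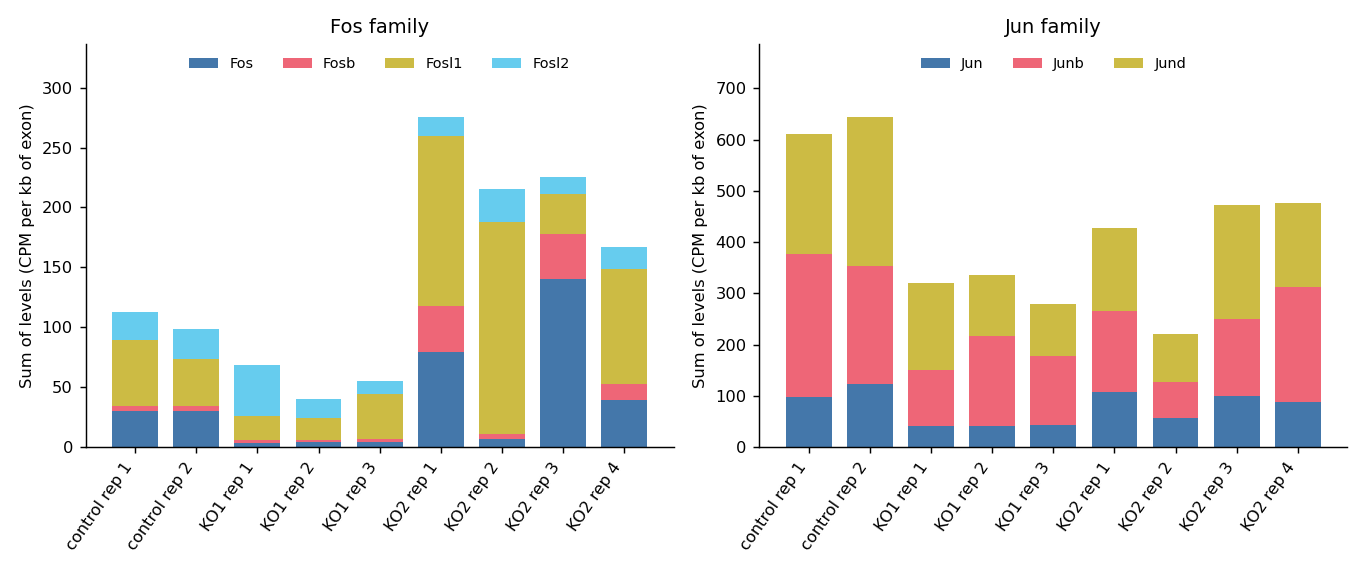
Stacked bars give, for each library on the x axis, the summed level in CPM per kb of exon on the y axis, split by gene, for the Fos family on the left and the Jun family on the right. The Fos family sum was 167 to 275 in KO2 and 39.9 to 68.8 in KO1, with Fosl1 the leading gene in most libraries.

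Within the Fos family, Fosl1 was the leading transcript per kb in 7 of 9 libraries, with 40.0 to 82.3% of the sum. The exceptions were KO1 replicate 1, led by Fosl2 (62.0%), and KO2 replicate 3, led by Fos (62.2%). The share of Fos was 26.8 and 30.4% in control, 4.67, 10.7 and 7.67% in KO1, and 28.8, 3.01, 62.2 and 23.7% in KO2, where replicate 2 was below every KO1 library. The mean share of Fos was 29.4 ± 24.5% (SD) in KO2 and 7.68 ± 3.02% in KO1, and an exact two-sided permutation test gave p = 0.2.

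The share of Fosl2 was 62.0, 38.3 and 18.6% in KO1 and 5.88, 12.6, 6.44 and 10.8% in KO2, so the clones did not overlap. Its mean was 8.93 ± 3.29% (SD, n = 4) in KO2 against 39.7% in KO1, and the exact permutation p of 0.0286 is the smallest that 35 assignments can give. Without any 1 library the difference of -30.7 percentage points was -41.2 to -19.6, and the smallest exact p was then 0.0667 or 0.1. The 14 tests of shares were not adjusted for each other, and this was the lowest p among them. The level of Fosl2 itself did not pass the test between the clones, while the family sum, its denominator, lay higher in KO2. Against control its share was 22.1 ± 20.8% over the 7 KO libraries and 23.1% in the 2 control libraries (exact permutation p = 0.917).

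In the Jun family, Junb and Jund led in turn, with 34.6 to 53.1% for Jund and 31.5 to 52.3% for Junb. The share of Jun was 16.0 and 19.2% in control, 12.6, 12 and 15.4% in KO1, and 25.3, 26.1, 20.9 and 18.4% in KO2. KO2 was above KO1 in every library (mean 22.7 ± 3.67% against 13.3%), and the exact permutation p was 0.0571. KO2 replicate 2, which had the least Jun, Junb and Jund of KO2, also had the largest share of Jun.

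For 7 of the 8 genes, all but Fosl2, the KO2 libraries spanned a wider fold range than those of KO1 or control. A range grows with the number of libraries, 4 in KO2 against 3 in KO1 and 2 in control. Over the 12028 tested genes that averaged 1 CPM or more, the median SD of log2(CPM + 1) was also largest in KO2. It was 0.32 there, beside 0.17 in KO1 and 0.08 in control. The share of all genes with their widest range in KO2 was not counted. Fos ranged over 21.7-fold within KO2, Fosb over 8.49-fold, Fosl1 over 5.36-fold, Egr1 over 3.73-fold and Junb over 3.22-fold. The SD of log2(CPM + 1) of Fos within KO2 was 1.89, beside a median of 0.32 over the 12028 tested genes that averaged 1 CPM or more, and 99.6% of these genes had a smaller SD. For Fosb it was 1.45 (98.6% smaller), for Fosl1 1.07 (96.5%) and for Egr1 0.89 (94.5%). In KO1 the gene that varied most was Fosl2, with an SD of 1.06 beside a median of 0.17 (99.2% smaller), whereas Jun had 0.05 (7.82% smaller). In control, Fos and Fosb had an SD of 0.01 and 0.00 between the 2 libraries, beside a median of 0.08.

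KO2 replicate 2, which had the fewest counts, was the lowest of the 4 KO2 libraries for 6 of the 8 genes (Fos, Fosb, Jun, Junb, Jund and Egr1) and the highest for the other 2 (Fosl1 and Fosl2). KO2 replicate 3 was the lowest for those 2. Among 31 other immediate-early genes KO2 replicate 2 was the lowest for 13 and the highest for 9, and KO2 replicate 3 the highest for 15 and the lowest for 5. How often these libraries were the lowest or highest of KO2 over all tested genes was not counted.

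By Pearson's r of log2(CPM + 1) over the 9 libraries, the genes whose pattern was most like that of each member were, for Fos, Pbx4 (0.956), Rhob (0.951), itself an immediate-early gene, and Crtc1 (0.944), a coactivator of CREB. For Fosb they were Robo1 (0.961), Sec14l2 (0.953) and Rab4a (0.950), for Fosl1 Peak1 (0.978), Snx22 (0.975) and Fam160b1 (0.974), and for Fosl2 Zfp36l1 (0.935), Wdfy3 (0.931) and Plagl1 (0.914). For Jun they were Tbc1d13 (0.972), 1700113A16Rik (0.962) and Hist2h2be (0.960), for Junb Mnt (0.983), Bmpr2 (0.968) and Dgkd (0.968), for Jund Slc26a11 (0.951), Per1 (0.944) and Gnpda2 (0.938), and for Egr1 Fzd6 (0.970), Xpc (0.968) and Kdm5a (0.963). No member was among the 3 nearest genes of another member. These r describe 9 libraries that share 3 cell populations, searched over 12028 genes.

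Of 32 other immediate-early genes 31 were tested. In KO against control 2 were called higher and 5 lower, in KO1 3 higher and 11 lower, and in KO2 5 higher and 7 lower. Their median log2 fold change was -0.06, -0.63 and 0.03, beside 0.055, 0.021 and 0.034 over all tested genes. In KO2 against KO1 13 were higher and 3 lower, with a median of 0.58 beside 0.023. Beside these counts and those of the lists below stand the shares of all tested genes called in either direction. They were 22.6% in KO, 31.6% in KO1 and 31.4% in KO2 against control, and 19.6% in KO2 against KO1.

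Among them Atf3, a stress-induced factor that can pair with Jun proteins, fell most in KO against control, from 332 ± 43.6 CPM in control to 21.9 ± 6.47 in KO1 and 31.9 ± 25.2 in KO2 (log2 fold change -3.58 ± 0.47, edgeR, adjusted p = 0.00193). Egr2, a relative of Egr1, was at 7.97 ± 3.29, 2.62 ± 0.911 and 1.71 ± 1.04 CPM in the 3 groups (-1.92 ± 0.60, adjusted p = 0.0591). Sgk1, a serum-induced kinase, rose from 38.0 ± 2.48 CPM in control to 61.1 ± 11.2 in KO1 and 237 ± 43.4 in KO2 (2.09 ± 0.73, adjusted p = 0.0824), and Ier5l from 19.4 ± 0.259 to 31.9 ± 7.22 and 44.4 ± 6.99 CPM (1.01 ± 0.27, adjusted p = 0.0343). Unlike Fos, Atf3 was called lower in both clones (adjusted p = 0.00287 in KO1 and 0.00342 in KO2), and Sgk1 was called higher in both (adjusted p = 0.0464 in KO1 and 0.000428 in KO2). Dusp1, a MAP kinase phosphatase, and Csrnp1, named after their values were seen, had log2 fold changes of -1.41 and -1.49 in KO1 against control (adjusted p = 0.0550 and 0.00489) and 1.90 and 1.85 in KO2 against KO1 (adjusted p = 0.0229 and 0.00362).

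**Figure D4:**
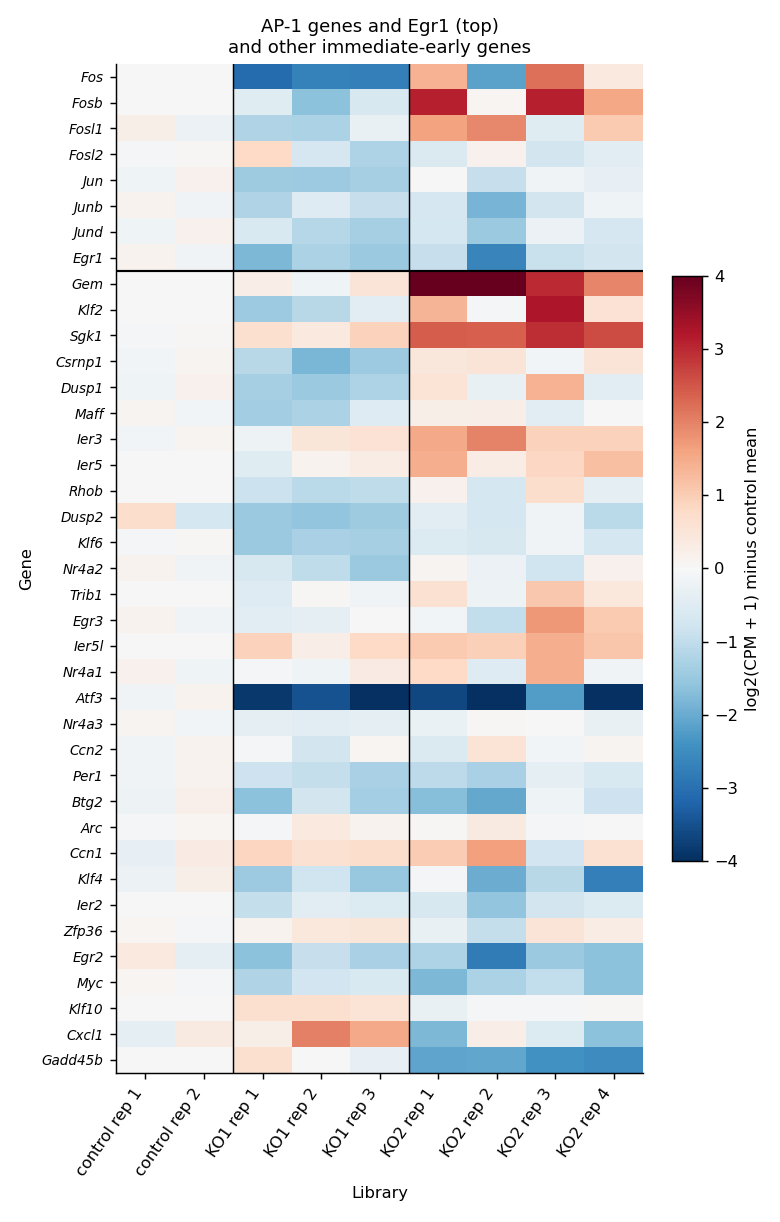
Colours give log2(CPM + 1) minus the mean of the control libraries for each gene (y axis) in each library (x axis), with the 8 genes above the line and 31 other immediate-early genes below it, ordered by the mean of KO2 minus that of KO1, and colours saturating at 4 in either direction. Fos and Dusp1 are low in KO1 and vary within KO2, and Atf3 is low in all 7 KO libraries.

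Of 12 other dimer partners of AP-1 proteins 9 were tested, and in KO against control 1 was higher and 5 were lower, with a median log2 fold change of -0.62. In KO1 1 was higher and 5 lower, and in KO2 1 higher and 4 lower. Of all tested genes 10.7% were called lower in KO and 15.7% in KO1. Ddit3, a stress factor of the C/EBP family, fell from 193 ± 57.4 CPM to 31.7 ± 10.3 in KO1 and 16.2 ± 5.83 in KO2 (-3.08 ± 0.39, edgeR, adjusted p = 0.00181). Jdp2, a repressor that pairs with Jun, fell from 86.0 ± 1.90 to 43.5 ± 10.9 and 15.4 ± 1.29 CPM (-1.65 ± 0.48, adjusted p = 0.0455).

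Of 11 SRF, TCF and CREB genes, which act upstream, 1 was higher in KO against control, Elk3, a TCF (0.66 ± 0.19, edgeR, adjusted p = 0.0410), and 1 lower, Creb1 (-0.68 ± 0.14, adjusted p = 0.0126), with a list median of -0.23. Of 22 genes of the MAP kinase cascades 3 were higher and 3 lower, with a median of 0.01. Among those that rose were Rps6ka4, a kinase that phosphorylates CREB and histone H3 (1.40 ± 0.30, adjusted p = 0.0141), and Hras (1.35 ± 0.27, adjusted p = 0.0111). Braf fell (-0.88 ± 0.23, adjusted p = 0.0270), and Map2k6, an activator of p38, went from 1.03 ± 0.123 CPM in control to at most 0.0558 CPM in any KO library (adjusted p = 0.00205).

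Of 14 feedback inhibitors and targets of ERK signalling 1 was called in KO against control, Spred1, which was lower (-0.42 ± 0.15, edgeR, adjusted p = 0.0821). In KO1 none was higher and 3 were lower, in KO2 1 was higher and 3 lower, and in KO2 against KO1 3 were higher and 1 lower. The medians were -0.18, -0.31 and 0.02 against control and 0.24 between the clones.

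Of 20 known target genes of AP-1 18 were tested, and 4 were higher and none lower in KO against control, with a median log2 fold change of 0.57 beside 0.055 over all genes. In KO1 6 were higher and 1 lower (median 0.12), in KO2 7 higher and 1 lower (median 0.85), and in KO2 against KO1 9 higher and 3 lower (median 0.74). Mmp3, a matrix metalloproteinase, was at 9.24 ± 5.47 CPM in control, 47.3 ± 49.8 in KO1 and 239 ± 100.4 in KO2 (4.08 ± 1.31 in KO against control, edgeR, adjusted p = 0.0625). Mmp10, a neighbour of Mmp3 in the same gene cluster, was at 0.282 ± 0.119, 2.43 ± 1.78 and 20.7 ± 8.90 CPM (5.52 ± 1.60, adjusted p = 0.0438). Both were higher in KO2 than in KO1 (2.34 ± 0.72, adjusted p = 0.0653, and 3.10 ± 0.65, adjusted p = 0.0194), and both were also called higher than control in KO1 (adjusted p = 0.0827 and 0.0281). Other metalloproteinases of this list, named after their values were seen, went the other way. Mmp13 was lower in KO2 than in KO1 (-3.89 ± 0.72, adjusted p = 0.0134), and Mmp9 was lower in KO2 than in control (-2.68 ± 0.66, adjusted p = 0.0199). The part of AP-1 in these levels was not tested.

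Of 15 co-repressors and targets of Egr1 14 were tested, and none was higher and 4 were lower in KO against control, with a median log2 fold change of -0.17. Vegfa fell from 91.9 ± 2.81 CPM in control to 22.2 ± 12.1 in KO1 and 13.6 ± 6.48 in KO2 (-2.41 ± 0.43, edgeR, adjusted p = 0.00664). Gdf15 was also lower (adjusted p = 0.0455), but at 0.359 ± 0.0105 CPM in control it was scarcely detected. Of 7 epithelial markers tested 1 was lower in KO against control, Cdh1, or E-cadherin (-0.65 ± 0.21, adjusted p = 0.0684), and 3 were lower and none higher in KO2 against KO1. Of the tested fibroblast (1), immune (3) and endothelial (1) markers none was called in KO against control. By clone, and named after their values were seen, Cd68, a macrophage marker, was called higher in KO1 than in control (19.3 ± 8.51 against 3.68 ± 0.721 CPM, adjusted p = 0.0958). Cdh5, an endothelial cadherin, was called higher in KO2 than in control (adjusted p = 0.0317) and than in KO1 (0.0208), and Ptprc, a leukocyte marker, higher in KO2 than in KO1 (0.0972), at levels of at most 1.39 and 0.905 CPM in any library. The part of these markers in the values of the 8 genes was not tested.

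Chromatin isolation by RNA purification (ChIRP) pulls down an RNA with biotinylated DNA oligos and sequences the DNA that comes with it. The peak lists of MaTAR25 of 4T1 cells hold 64607 peaks with even oligos, 61311 with odd oligos and 76806 with all of them (total pool), and that of NDL cells holds 70329 with all oligos. The labels of the NDL sample give FVB and MMTV-PyMT, whereas the study's methods name its NDL cells as MMTV-Neu-NDL, so their genotype is uncertain here. Each list was called over pooled replicates, so no replicate test is possible, and scores, of unknown scaling, were compared within a list. A peak was given to the gene whose promoter was nearest. In these terms 5, 4, 5 and 3 of the 8 genes had a peak, where 52.2, 52.0, 58.3 and 56.7% of 22028 protein-coding genes had one, so the share among the 8 genes was near that of all genes.

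Fos had a peak within the gene, centred 1114 to 1141 bp after its start, in all 3 lists of 4T1 cells, with scores of 56.5, 46.7 and 65.9 in the even, odd and total pools. A peak 5832 bp after its start, beyond the end of the gene, had a score of 390.6 in the odd pool (rank 3167) and, 4 bp closer to the start, of 133.4 in NDL cells, and was in neither the even nor the total list of 4T1 cells. Fosb had a peak 4343 to 4413 bp before its start in the even, total and NDL lists (scores 68.6, 133.0 and 151.5). Fosl2 had an intronic peak in the odd pool (score 312.7) and the total pool (90.3), and another in the total pool alone (237.8). Fosl1 had no peak in any list, by nearest promoter or within 10 kb of the gene.

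Jun had no peak by nearest promoter but one 1503 to 1655 bp before its start in the even, total and NDL lists (scores 69.0, 91.8 and 90.0). Junb had a peak over its end in the even and total pools (169.4 and 162.9), one 1423 bp after its start in the total pool (141.7) and one 2038 bp before its start in the odd pool (93.0). Jund had 1 peak, in the even pool (72.9), and the peaks of Egr1 had scores from 21.8 to 59.3. The best peak of Egr1 had rank 23784 in the even, 49109 in the odd, 28091 in the total and 25906 in the NDL list. Egr1 had a peak in all 4 lists and Junb in 3. The relation of the peaks to the differences between the clones was not tested. Within 10 kb, the rule by which the peaks of Jun count, 7, 5, 6 and 4 of the 8 genes had a peak in the even, odd, total and NDL lists, where 64.6, 64.6, 72.1 and 70.7% of protein-coding genes had one.

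**Figure D5:**
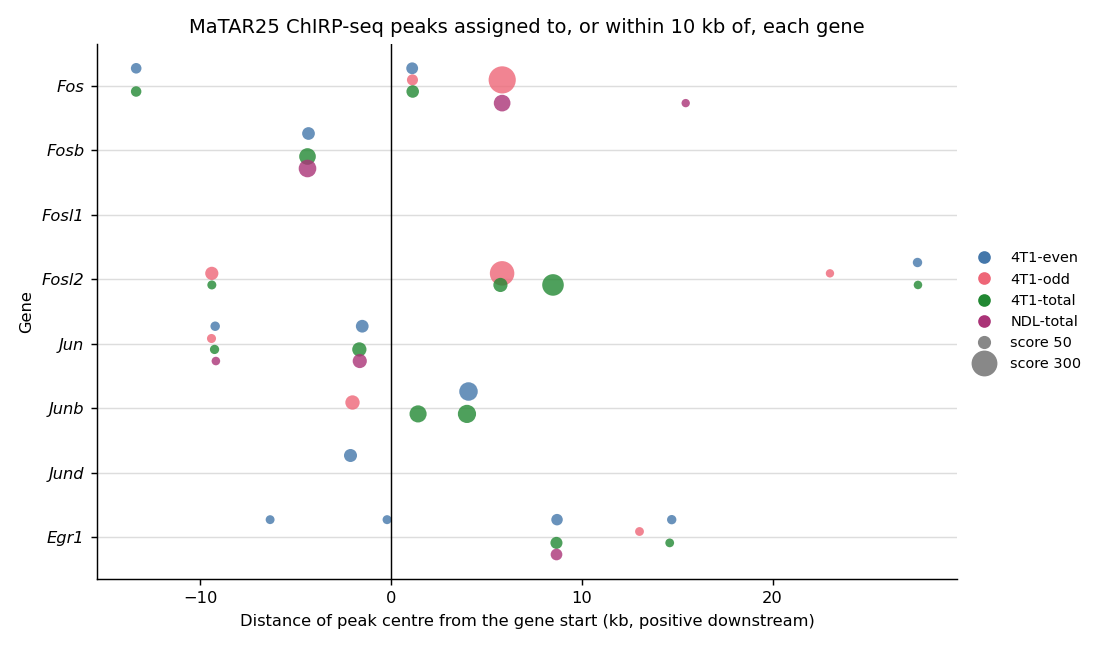
Points give the distance of each ChIRP-seq peak centre from the start of the gene in kb on the x axis, for each gene on the y axis, coloured by peak list and sized by peak score. The largest points are the peaks at Fos (390.6) and Fosl2 (312.7) in the odd pool, and Fosl1 has none.

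Because an oligo can also bind DNA by its own sequence, the peaks at the 7 genes of the Fos and Jun families were searched for exact matches of at least 12 bases to the 14 MaTAR25 oligos, on both strands. Such a match was in 12 of 31 peaks, counted list by list, at 5 sites, of which 4 are shown. Each first line gives the oligo and each second line the site on the plus strand of GRCm38.p6, 5′ to 3′, with the matching bases in capitals.
MaTAR25-oligo11: agaAGGAATGTCACCTgtca
Fos, chr12:85479702-85479730: ctggcactAGGAATGTCACCTttcttttg
MaTAR25-oligo7: ttggGAGTAACCTGGGGAag
Fosl2, chr5:32141511-32141540: ggagacccGAGTAACCTGGGGAtaacccct
MaTAR25-oligo6: AGTCACAGAGAAGGacggcg
Jund, chr8:70697020-70697049: tggagaggAGTCACAGAGAAGGgatgagac
MaTAR25-oligo4: caggTGGTGGAGATGGaatg
Fos, chr12:85474982-85475009: ggtgacagCCATCTCCACCAgcccagac

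The 13-base match to oligo 11 lies 2437 bp beyond the end of Fos, in the peak found with the odd pool and in NDL cells. The 14-base match to oligo 7 lies in an intron of Fosl2, in the peak of the odd and total pools, and the 14-base match to oligo 6 lies 1908 bp upstream of Jund, in the peak of the even pool alone. Where the pools are taken as the odd-numbered and even-numbered oligos, these 3 matches lie in peaks of the pool that held the oligo and not of the other one, whereas the 12-base match to oligo 4, in the intron of Fos, lies in a peak of the odd pool as well. The total pool of 4T1 cells also held oligos 11 and 6, but its list had no peak at the oligo 11 match of Fos or the oligo 6 match of Jund. The site not shown, a 12-base match to oligo 6 at 9313 bp upstream of Jun, lies in peaks of all 4 lists. The peaks near the starts of Fosb and Jun had no match of 12 bases. The share of all peaks of the lists with such a match was not counted, and the part of these matches in the peaks was not tested.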

How the data were processed

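Polyadenylated RNA of 2 control, 3 KO1 and 4 KO2 libraries of 4T1 cells was sequenced, and MaTAR25 ChIRP-seq was done in 4T1 and NDL cells. The authors mapped RNA reads with STAR and deposited raw counts per gene from HTSeq (GENCODE vM5, GRCm38), with no strand setting given in the sources used here. The deposited ChIRP-seq peak lists hold a peak score from HOMER after mapping with Bowtie2, called by the authors over pooled replicates against a control pulldown of Ppib RNA.

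Groups came from the sample labels. Of 45318 gene identifiers, 44671 matched a symbol in GENCODE vM21, which also gave positions and exon lengths. Lines that name no gene were left out. Reads not counted to a gene for any reason were 33.9 to 37.0% of the counted total. These include the reads mapped more than once (24.1 to 27.5% of the total) and the ambiguous reads (2.28 to 2.38%). Genes were filtered with filterByExpr, scaled by TMM and tested by the quasi-likelihood test of edgeR 4.0.16 (R 4.3.3) with Benjamini-Hochberg adjustment over all 15023 tested genes and a threshold of 0.1. The 7 KO libraries were set against control in one fit, and KO1, KO2 and control in another with a shared estimate of spread. CPM used TMM-scaled library sizes, log2 levels a pseudocount of 1 CPM, and family shares CPM per kb of exon. The fits were tested on simulated data. Single values and shares were compared by exact two-sided permutation tests.

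The 8 genes and all lists (immediate-early genes, AP-1 dimer partners, SRF, TCF and CREB regulators, the MAP kinase cascade, ERK feedback, AP-1 targets, Egr1 co-repressors and targets, and epithelial, fibroblast, immune and endothelial markers) were chosen with earlier results of these data known. From each list at most 2 higher and 2 lower genes with the largest fold change among those called in KO against control were named, and for each of the 8 genes the 3 tested genes, among those that averaged 1 CPM or more, with the highest Pearson r. 1 gene that this rule names is not reported here. Dusp1, Csrnp1, Mmp9 and Mmp13 were added after their values were seen. Alternatives were DESeq2 1.42.0, other size factors and count filters, a stricter threshold, a replicate block, other sets of libraries, another pseudocount, no length scaling, and other peak windows and scores. Depth was 25367211 to 61110585 counts per library, which limits low genes such as MaTAR25 most.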

Additional observations from a re-analysis of the deposited data

Results flagged for a closer look

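Egr1 in KO2 replicate 2 lay far from the other KO2 libraries, at 84.5 CPM beside 278, 287 and 315 CPM, and its gap to the nearest of them exceeded Dixon's 95% critical value for 4 samples. This was the only such library among 16 groups of values tested (the 8 genes in KO2 and in all 7 KO libraries), and chance flags about 1 in 20. The log2 fold change of Egr1 against control in KO2 was -1.14 with this library (adjusted p = 0.0698) and -0.86 without it (adjusted p = 0.0086).

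The effects of KO2 and KO1 against the shared control differed for 4 of the 8 genes by edgeR's quasi-likelihood test of the difference. The effect in KO2 minus that in KO1 was 4.09 on the log2 scale for Fos (adjusted p = 0.0185), 3.34 for Fosb (0.0195), 2.13 for Fosl1 (0.0296) and 1.09 for Jun (0.0143). KO2 was higher in 4 of 4 libraries than any KO1 library for Fos, Fosb and Jun, and in 3 of 4 for Fosl1. Each group is 1 clone, so the deletion and other properties of a clone cannot be told apart.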

How the results depend on the processing

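Where 1 library was left out, 250 of 288 log2 fold changes of the 8 genes kept their direction and side of the threshold. Of the rest, 21 lost a call, 11 gained one and 6 changed sign. The 288 include fold changes that were not called in the main fits. They also include fits without a library outside the comparison, where the fold change hardly moves. Over the other alternatives, among them the fits of only the 2 groups compared, 200 of 224 kept their direction and side of the threshold. Fos, Fosb and Jun were called higher in KO2 than in KO1 under every alternative run. The number of the 8 genes called was 0 to 3 in KO, 1 to 5 in KO1 and 0 to 4 in KO2 against control when 1 library was left out, with the lowest value in each case without a control library. In KO it was 1 at a threshold of 0.05, 3 in the fit of 3 groups, which added Jun, and 3 with DESeq2, which added Junb. In KO1 it was 5 with DESeq2 and 5 with no filter on low counts, both adding Junb. It was 7, all but Fosl2, where only control and KO1 were fitted. In KO2 it was 4 with DESeq2 and 4 with no filter on low counts, both adding Fosl1 and Jund, 1 (Fosb) where only control and KO2 were fitted, and 0 at 0.05. The cause of these changes was not tested, except that the fits with 2 groups had fewer libraries. The share of all tested genes called was not counted for these alternatives or for the replicate block below. Whether the counts of the 8 genes followed that share is therefore not known.

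With the replicate number as a block, 1 gene was called in KO and 1 in KO2 (Egr1 in both), 4 in KO1 and 3 in KO2 against KO1, without Fosl1. The numbers did not pair the libraries: deviations from the group means correlated at -0.21 to 0.06 over 7 pairs with the same number and at -0.16 to 0.16 over 19 other pairs. The sign turned under the block for Fos in KO (-1.26), Fosl2 in KO (0.04), KO1 (0.06) and KO2 (0.01), and Junb in KO2 against KO1 (-0.21), and in the fit of 3 groups for Fos in KO (-0.90). None of these was called.

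Without 1 library, the log2 fold change spanned 0 for Fos in KO (-0.40 to 0.60), Fosl2 in KO1 (-0.92 to 0.26), and Fosl2 (-0.61 to 0.57) and Junb (-0.15 to 0.35) in KO2 against KO1. So did the difference in mean log2(CPM + 1) of Fosl1 in KO (-0.10 to 0.43), and of Fosl2 (-0.47 to 0.55) and Junb (-0.21 to 0.35) between the clones. The difference in family share, in percentage points, did so in KO against control for Fosl2 (-7.62 to 1.74), Jun (-0.496 to 2.72), Junb (-5.35 to 4.69) and Jund (-4.20 to 2.63), and between the clones for Fosl1 (-7.25 to 15.3) and Jund (-4.50 to 4.19). With peak scores of at least 100, 1, 2, 3 and 2 of the 8 genes had a ChIRP-seq peak in the even, odd, total and NDL lists, beside 17.8, 22.6, 24.9 and 21.9% of protein-coding genes. Genes at a few counts, such as MaTAR25, allow no firm fold at this depth.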
